A study of Mus musculus with 2 samples.

Results

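The genes described here are 10 enzymes and regulators of polyamine metabolism, Odc1, Amd1, Srm, Sms, Oaz1, Oaz2, Azin1, Sat1, Smox and Paox. They were chosen by symbol from the 24421 gene symbols of a bulk RNA-seq table. The rule used no measured value, but earlier results of these data were known when the list was made. Each of the 10 had a row in both libraries, and 9 passed the minimum of a mean RPKM of at least 1. RPKM is reads divided by gene length and by library size, so levels can be set side by side between genes. This holds only as far as reads shared with near-identical copies of a gene were counted alike, which was not tested. Amd1 was below the minimum.

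RNA was measured in granulocyte-monocyte progenitors (GMPs), marrow cells that give rise to neutrophils and monocytes, sorted by flow cytometry from bone marrow of female mice. One group, NTB-GMP, came from non-tumor-bearing mice, and the other, 4T1-GMP, came from mice with a tumor of the mouse mammary carcinoma line 4T1 implanted orthotopically. Both groups had the same F1 semi-syngeneic H-2b/d background, total RNA was extracted with TRIzol, and each group was 1 library. The labels give neither the age of the mice nor the number whose marrow went into a library.

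Polyamines (putrescine, spermidine and spermine) are small positively charged molecules that bind nucleic acids and are needed for growth and translation. Ornithine decarboxylase makes putrescine, and spermidine synthase and spermine synthase add aminopropyl groups that come from decarboxylated S-adenosylmethionine. Antizymes bind ornithine decarboxylase and send it to the proteasome, antizyme inhibitors hold antizymes back, and acetylation followed by oxidation returns the higher polyamines to the lower ones.

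Of the 9 genes that passed the minimum, Odc1 and Azin1 were at least 1.5-fold higher in 4T1-GMP, as were 9.8% of all tested genes, and Srm and Sat1 were higher by less than that. Odc1 and Azin1 both fell short of 1.5-fold without Rn45s in the library sizes or after quantile normalization, and Odc1 also with centred ratios. The signs of the differences of Sms and Oaz2 also depended on the scaling, the values of Oaz1, Oaz2 and Paox lay close to each other in the libraries, and Smox was low in both. The ratio of Odc1 to Oaz1 and that of Azin1 to Oaz1 were higher in 4T1-GMP, whereas the ratio of Azin1 to Odc1 was about the same. These are differences between 2 libraries with no replicate check, so no p-value is given. The 95% intervals come from reads recovered from the RPKM and cover counting error at most. With 1 library per group they hold no variation between mice or libraries. They treat reads as independent molecules, which PCR reads without molecular identifiers are not, so they can be too narrow.

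The library size behind the RPKM was 10180365 in NTB-GMP and 30016263 in 4T1-GMP, 2.95 times as large. Rn45s, the ribosomal RNA precursor, held at least 17.0% of the first and at least 6.98% of the second. Leaving it out of both library sizes moves log2 ratios by -0.16, except where a level near 0 makes the added 0.1 count. The sizes were not whole numbers, so they may already be scaled. Leaving out Rn45s would then correct on top of that scaling, which was not tested. The 10 GMP markers were all above 0 in both libraries, with summed levels of 10657 and 16353 RPKM. Of these, 6 were higher in 4T1-GMP (Mpo, Elane, Prtn3, Ctsg, Ms4a3 and Csf3r) and 4 were lower (Kit, Cd34, Fcgr3 and Cebpa). All 10 markers of mature neutrophils were higher in 4T1-GMP, with a summed level of 507 RPKM in NTB-GMP, against 4044 RPKM in 4T1-GMP, and none was at 0. All 10 monocyte and dendritic markers were lower in 4T1-GMP, at 131 against 31.9 RPKM in sum, with Batf3 at 0 in 4T1-GMP. The 6 basophil and mast cell markers summed to 455 RPKM in NTB-GMP, against 188 RPKM in 4T1-GMP. Summed levels were 32.6 and 18.4 RPKM for 8 stem and early progenitor markers (Ly6a at 0 in NTB-GMP). Of these, 4 were higher in 4T1-GMP and 4 lower, with Meis1 at 17.1 and 4.73 RPKM. The 8 erythroid and megakaryocyte markers summed to 9.50 and 1.70 RPKM (Hba-a1 and Hbb-bt at 0 in both), with 1 higher in 4T1-GMP and 5 lower. The 6 lymphoid markers summed to 15.2 and 12.8 RPKM (Cd3e at 0 in NTB-GMP), with 2 higher in 4T1-GMP and 4 lower. Most of that sum was Cd79b, at 14.7 and 12.4 RPKM. The part of these cell types in the results below was not tested, and in bulk RNA fewer cells of a type and less RNA per cell cannot be told apart.

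Several of these genes have near-identical copies, and a few sequences show how far that limits the values. Amd1 (chr10:40287458-40302186, minus strand, GRCm38) encodes S-adenosylmethionine decarboxylase, which makes the aminopropyl donor. Amd2 (chr10:35708675-35711892, minus strand) has a coding sequence of the same 1005 bases that differs from that of Amd1 at 1 base, G796C, written as the Amd1 base, the position counted from 1 at the A of the start codon, and the Amd2 base. The stretch from 766 to 825 of both coding sequences (GENCODE M21 transcripts) is shown with that base in capitals.
Amd1: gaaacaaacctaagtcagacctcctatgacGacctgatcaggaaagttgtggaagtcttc
Amd2: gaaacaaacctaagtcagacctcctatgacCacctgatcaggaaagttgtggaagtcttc

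Of all runs of 50 bases in the Amd1 transcript, 87.6% also stand in transcripts of other genes, and 86.1% stand in Amd2. A read that matches both genes equally well cannot be assigned to one of them. Amd1 was listed at 0 in NTB-GMP, where 3 reads would have given 0.0919 RPKM, and at 0.0312 RPKM (3 reads) in 4T1-GMP. Amd2 was listed at 0 in both libraries. The level of Amd1 is therefore uncertain in these values, no ratio is given for it, and whether shared reads were dropped in counting was not tested.

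Oaz1 (chr10:80826656-80829290, plus strand) and Oaz2 (chr9:65668001-65690300, plus strand) encode antizymes. Their proteins are made only when the ribosome shifts reading frame at a fixed codon, which polyamines promote. GENCODE joins the coding exons at that point by leaving out 1 base, at position 80828295 in Oaz1 and 65686272 in Oaz2. The 30 transcript bases around the join are shown, with the last codon before the omitted base and the first codon after it in capitals.
Oaz1: cctcggtggtgcTCCGATgtccctcaccca
Oaz2: cctctgtggtgcTCCGATgcccctcaccca

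The capital letters are identical in both antizymes. The processed pseudogene Oaz1-ps (chr17:17345456-17346140, minus strand) holds 52.2% of the runs of 50 bases of Oaz1, and it was listed at 0 in both libraries. Among the other members the share of such runs found in other genes was 42.2% for Odc1, 28.9% for Paox, 28.7% for Sms, 12.0% for Oaz2, 7.28% for Sat1, 6.43% for Azin1, 2.40% for Srm and 0 for Smox. Whether reads shared with such copies lowered the levels was not tested. For Odc1 the share was spread over 9 genes with at least 5% each, of which 1 had a row in the table, at 3.31 RPKM in NTB-GMP, against 2.61 RPKM in 4T1-GMP.

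Among the synthesis genes, Odc1 (chr12:17544794-17551505, plus strand) encodes ornithine decarboxylase, the first and rate-limiting step. Its level was 83.2 RPKM (2158 reads) in NTB-GMP and 127 RPKM (9741 reads) in 4T1-GMP. The intervals of the levels, 79.8 to 86.8 and 125 to 130 RPKM, did not overlap. On the log2(RPKM + 0.1) scale, used for all ratios here, the ratio was 0.61 (95% interval of the reads 0.55 to 0.68), a 1.53-fold difference, and 91.1% of the tested genes had a lower ratio. A fold of 1.5 equals 0.58 on this scale, so Odc1 lay just past the limit and the interval included it.

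Srm (chr4:148591503-148594993, plus strand), which encodes spermidine synthase, had the highest listed level of the 10 genes in both libraries. It was at 99.3 RPKM (1343 reads) in NTB-GMP and 132 RPKM (5250 reads) in 4T1-GMP, and the intervals of 94.1 to 105 and 128 to 135 RPKM did not overlap. The log2 ratio was 0.41 (0.32 to 0.49), 1.33-fold.

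Sms (chrX:157443855-157492287, minus strand) encodes spermine synthase. It was at 25.9 RPKM (889 reads) in NTB-GMP and 28.7 RPKM (2909 reads) in 4T1-GMP, 1.11-fold, with a log2 ratio of 0.15 (0.04 to 0.26). That sign turned when Rn45s was left out of the library sizes, with a log2 ratio of -0.01. Summed over Odc1, Srm and Sms, the level was 208 RPKM in NTB-GMP, against 288 RPKM in 4T1-GMP, 1.38-fold, and most of the sum came from Odc1 and Srm.

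**Figure D1:**
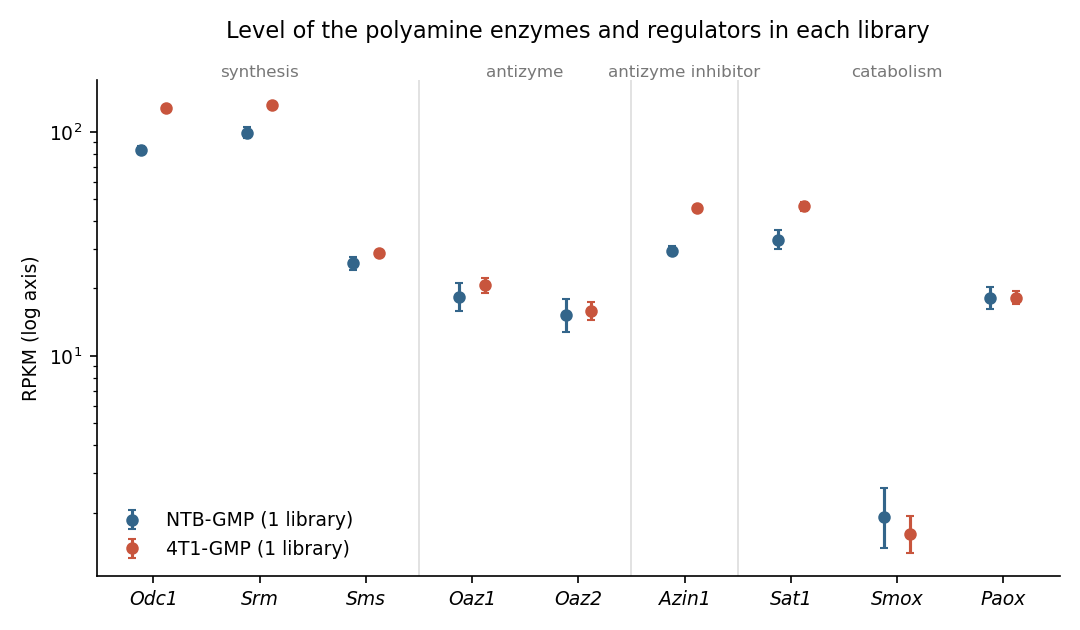
Level of the 9 members above the minimum in RPKM (log axis) in NTB-GMP (blue) and 4T1-GMP (red), 1 library each, with bars for the exact 95% Poisson interval of the reads, ordered by role. The blue and red bars of Odc1, Srm, Azin1 and Sat1 stand apart, and those of Oaz1, Oaz2, Smox and Paox overlap. For Sms the blue bar ends at 27.62 RPKM and the red bar begins at 27.66 RPKM. Amd1, at 0 and 0.0312 RPKM, is not drawn.

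Of the runs of 50 bases, 52.2% of those of Oaz1 and 12.0% of those of Oaz2 also stand in other genes. Whether this lowered the listed levels of the antizymes was not tested. Oaz1 was at 18.4 RPKM (201 reads) in NTB-GMP and 20.7 RPKM (669 reads) in 4T1-GMP, with a log2 ratio of 0.17 (-0.05 to 0.41). Oaz2 was at 15.2 RPKM (at least 143 reads) and 15.9 RPKM (at least 441 reads), with a log2 ratio of 0.06 (-0.21 to 0.35). The intervals of both ratios held 0, so a difference of either antizyme was not detectable from the reads counted, and both ended below 1.5-fold.

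Azin1 (chr15:38487427-38519266, minus strand), the antizyme inhibitor, resembles ornithine decarboxylase but has no enzyme activity. It was at 29.5 RPKM (1557 reads) in NTB-GMP and 45.9 RPKM (7141 reads) in 4T1-GMP. Those levels gave the highest ratio among the members, 0.64 (0.56 to 0.72) in log2 or 1.56-fold, and 91.7% of the tested genes had a lower one. Its paralog Azin2 was at 0 reads in NTB-GMP and 0.262 RPKM (11 reads) in 4T1-GMP, both below the minimum. The antizyme paralog Oaz3 was listed at 0 in both.

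Among the catabolic genes, Sat1 (chrX:155213132-155216449, minus strand) encodes spermidine/spermine acetyltransferase, which marks polyamines for export or oxidation. It was at 33.1 RPKM (430 reads) in NTB-GMP and 46.6 RPKM (1787 reads) in 4T1-GMP. The intervals of the levels reached up to 36.3 RPKM in the first library and down to 44.4 RPKM in the second, so they did not overlap, and the log2 ratio was 0.49 (0.34 to 0.65), 1.41-fold. The acetyltransferase paralogs were near or at 0, Sat2 with 0 reads in NTB-GMP and 1 read in 4T1-GMP and Satl1 at 0 in both.

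Paox (chr7:140115799-140137224, plus strand), the peroxisomal oxidase of acetylated polyamines, was at 18.2 RPKM in both libraries (322 and 949 reads). The interval of its log2 ratio, -0.18 to 0.19, lay within 1.5-fold in either direction. Smox (chr2:131491496-131525922, plus strand) encodes spermine oxidase, which turns spermine directly into spermidine. It was at 1.91 RPKM (44 reads) in NTB-GMP and 1.61 RPKM (109 reads) in 4T1-GMP, with a log2 ratio of -0.24 (-0.77 to 0.29), an interval that spans 1.5-fold lower. The sum over Sat1, Smox and Paox was 53.2 RPKM in NTB-GMP, against 66.4 RPKM in 4T1-GMP, 1.249-fold, and the difference of Sat1 alone was 13.5 RPKM.

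**Figure D2:**
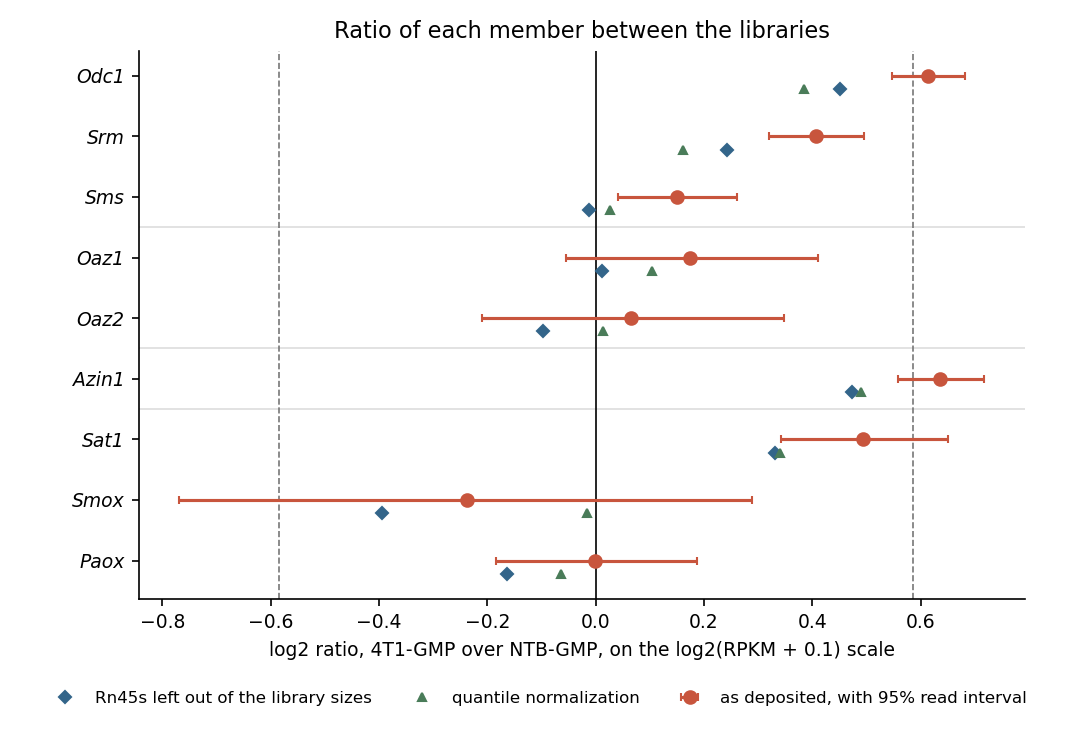
Log2 ratio of each member, 4T1-GMP over NTB-GMP, with the 95% interval of the reads (red), and the same ratio without Rn45s in the library sizes (blue diamonds) or after quantile normalization (green triangles). Dashed lines mark 1.5-fold. Odc1 and Azin1 lie past the right line as deposited and inside it under both other scalings, and the diamond of Sms lies left of 0.

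The order of the listed levels was the same in both libraries: Srm, Odc1, Sat1, Azin1, Sms, Oaz1, Paox, Oaz2, Smox and Amd1. The share of runs found in other genes differed between these genes, and its part in the order was not tested. The intervals of Sat1 and Azin1, of Oaz1 and Paox, and of Paox and Oaz2 overlapped in both, so the order within these pairs was not resolved. Srm and Odc1 were apart in NTB-GMP and overlapped in 4T1-GMP. Of the genes tested, 93.7% had a lower level than Odc1 and 95.1% a lower level than Srm in NTB-GMP, against 6.88% for Smox.

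Of the 9 members tested, 2 (Odc1 and Azin1) were at least 1.5-fold higher in 4T1-GMP, where 9.8% of all 10378 tested genes were. None was at least 1.5-fold lower, against 11.6% of all tested genes. The count of 2 rests on the scaling. It was 1 (Azin1) with ratios centred on the median of all tested genes, where 8.35% of these were past the same limit. It was 0 without Rn45s in the library sizes, against 5.73% of all tested genes, and 0 after quantile normalization, against 9.52%. On the library sizes behind the deposited RPKM, which were not whole numbers, the trimmed mean of the log2 ratios of all genes was 0.0022, so this measure of the centre was near 0 before Rn45s was left out. The median log2 ratio of all tested genes was 0.05 as deposited and -0.11 without Rn45s.

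The read interval lay above 0 for 5 of the 9 members (Odc1, Srm, Sms, Azin1 and Sat1), as for 36.1% of all tested genes, and below 0 for none, against 27.9%. It held 0 for Oaz1, Oaz2, Smox and Paox. Recovered counts can be too low by a common factor, which widens intervals, so the 36.1% and 27.9% can be too low. The median log2 ratio of the 9 was 0.17, with a range from -0.24 to 0.64, beside a median of 0.05 and quartiles of -0.26 and 0.32 over all tested genes. The median was 0.01 without Rn45s in the library sizes, 0.10 after quantile normalization and 0.29 with a minimum mean RPKM of 5, which drops Smox. Higher values in 4T1-GMP were found for 7 of the 9 and for 54.7% of all tested genes. Without Rn45s they were found for 5 of the 9 and for 39.2% of all tested genes, since the ratios of Sms and of Oaz2 (-0.10) turned sign.

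**Figure D3:**
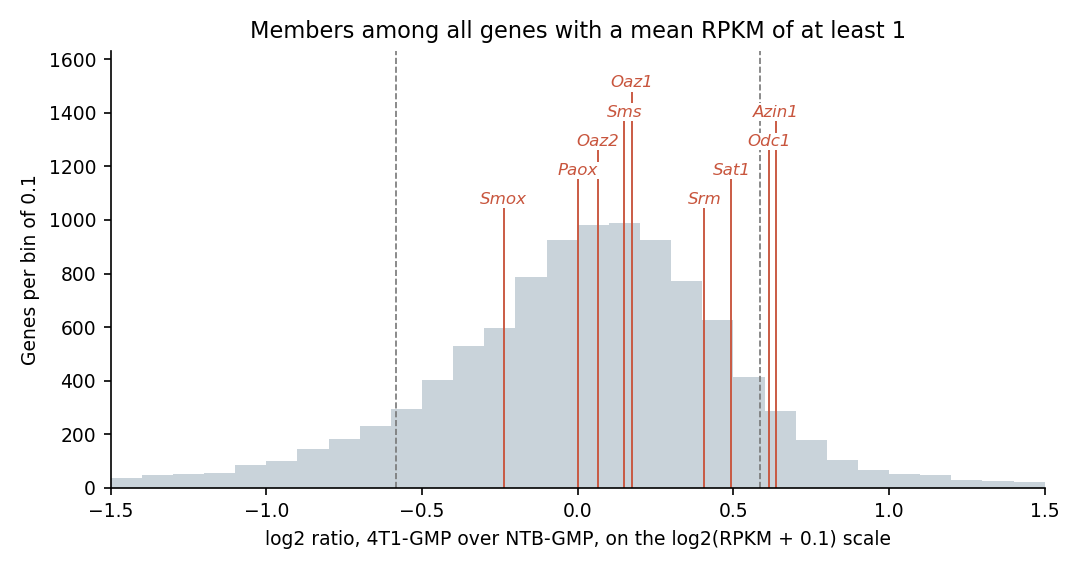
Number of tested genes per bin of 0.1 in log2 ratio (4T1-GMP over NTB-GMP), with a red line at each member and dashed lines at 1.5-fold. Odc1 and Azin1 lie in the right flank and Smox left of the peak, and 235 genes to the left and 163 to the right fall outside the axis.

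The ratio of a pair of genes within a library does not depend on the library size. The level of Odc1 was 4.53 times that of Oaz1 in NTB-GMP and 6.15 times in 4T1-GMP, a change of 1.36-fold (exact 95% interval of the odds ratio of reads 1.14 to 1.60). Azin1 was at 1.61 times the level of Oaz1 in NTB-GMP and at 2.22 times in 4T1-GMP, a change of 1.38-fold (1.16 to 1.63). Both intervals lay above 1, and both share the reads of Oaz1, for which copies limit the level. Azin1 stood at 0.355 of Odc1 in NTB-GMP and at 0.360 in 4T1-GMP, and the interval of that change, 0.945 to 1.09, was narrow around 1.

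Sms stood at 0.260 of the level of Srm in NTB-GMP and at 0.218 in 4T1-GMP, a change of 0.837 with an interval (0.760 to 0.923) below 1. The ratio of Sat1 to Odc1 was 0.397 and 0.366, with a change of 0.921 (0.820 to 1.04). For Oaz2 to Oaz1 the change was 0.927 (0.720 to 1.19), and for Smox to Paox it was 0.841 (0.573 to 1.2502). These 3 intervals held 1. Of the 7 pairs, 3 thus had an interval apart from 1, and the pair of Amd1 and Srm was left out because Amd1 had 0 and 3 reads.

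**Figure D4:**
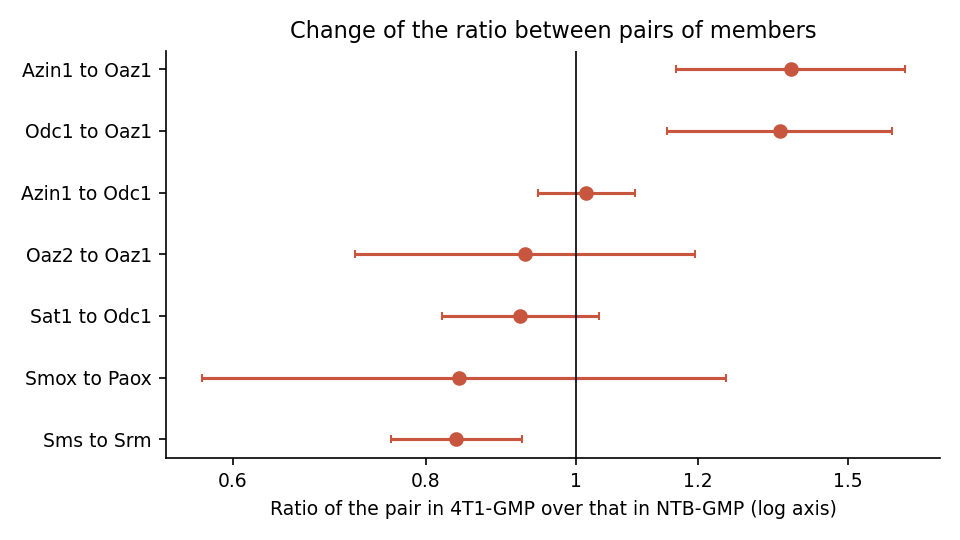
Change of the ratio between 2 members (ratio in 4T1-GMP over that in NTB-GMP, log axis), as the odds ratio of reads with its exact 95% interval, for 7 pairs. The 2 pairs over Oaz1 with Azin1 and Odc1 lie right of 1, Sms to Srm lies left of it, and the other 4 intervals cross 1.

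Other genes of the pathway were taken in 7 lists with 46 genes in all, of which 27 were tested. Of these, 3 were at least 1.5-fold higher in 4T1-GMP and 2 at least 1.5-fold lower, beside the 9.8% and 11.6% of all tested genes, and the median log2 ratio was 0.05. The genes were Arg2, Gatm and Got1 on the higher side and Slc22a3 and Atp13a2 on the lower side. Arg2 passed the minimum only through its level in 4T1-GMP, so its place among the 3 was fixed in advance under each scaling. With Rn45s left out or with centred ratios the same 5 were past the limit, and after quantile normalization Gatm was not.

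Precursor supply had 4 of 8 genes tested, and 2, Arg2 and Gatm, were past the limit on the higher side, as were 9.8% of all tested genes. Arg2, the mitochondrial arginase that yields ornithine, had 0 reads in NTB-GMP and 115 reads (2.70 RPKM) in 4T1-GMP. Its level in 4T1-GMP was 13-fold the 0.208 RPKM that 3 reads would have given in NTB-GMP. This is not a lower bound of the difference, because the read interval of the log2 ratio of Arg2 began at 3.38, which is less than 13-fold. Arg2 passed the minimum only through its level in 4T1-GMP, so its place among the higher genes was fixed by that minimum. Gatm, which makes ornithine and guanidinoacetate from arginine and glycine, was at 67.3 RPKM in NTB-GMP, against 114 RPKM in 4T1-GMP, 1.69-fold. Among the 4 tested genes, the lowest ratio was that of Asl, argininosuccinate lyase, at 14.1 and 15.3 RPKM. Its interval of -0.10 to 0.34 held 0. Arg1, the cytosolic arginase, was listed at 0 in both libraries.

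Methionine and methyl donor supply had 6 of 7 genes tested, none past the limit and a median log2 ratio of 0.03. Its highest ratio was that of Mat2b, the regulatory subunit of methionine adenosyltransferase, at 34.9 RPKM in NTB-GMP, against 50.1 RPKM in 4T1-GMP (0.52). Its lowest among the 6 tested genes was that of Ahcyl1 at 40.0 and 34.9 RPKM (-0.20). All 6 genes of methionine salvage, which recycles the by-product of spermidine and spermine synthesis, were tested, and the median ratio was -0.00. Got1, an aspartate aminotransferase, was at 11.4 RPKM in NTB-GMP, against 21.5 RPKM in 4T1-GMP, 1.88-fold, with a log2 ratio of 0.91 (0.71 to 1.12), whereas Adi1 was lower, at 22.5 and 17.1 RPKM (-0.39).

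The hypusine list covers the use of spermidine to modify translation factor eIF5A. Of its 4 genes 3 were tested, and none was past the limit. Eif5a, the factor itself, was at 347 RPKM in NTB-GMP, against 502 RPKM in 4T1-GMP, with a log2 ratio of 0.53 (0.50 to 0.57). Dhps, the first enzyme of the modification, was at 9.73 RPKM (at least 11 reads) and 11.1 RPKM (at least 37 reads). Dohh, the second enzyme, was at 21.5 RPKM (at least 79 reads) in NTB-GMP and 27.1 RPKM (at least 294 reads) in 4T1-GMP. The intervals of their ratios were -0.81 to 1.31 for Dhps and -0.03 to 0.71 for Dohh. These counts can be too low, which widens the intervals, so whether the ratios differ from 0 was not settled.

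Transport had 5 of 11 genes tested, 2 of them at least 1.5-fold lower in 4T1-GMP, as were 11.6% of all tested genes. None was higher past the limit. Slc22a3, an organic cation transporter, was at 13.9 RPKM (496 reads) in NTB-GMP and 2.88 RPKM (302 reads) in 4T1-GMP, 4.84-fold lower, with a log2 ratio of -2.24 (-2.49 to -2.07). Atp13a2, which exports polyamines from lysosomes, was at 13.2 RPKM in NTB-GMP, against 6.17 RPKM in 4T1-GMP, 2.13-fold lower. The highest ratio among the 5 tested genes was that of the arginine transporter Slc7a1, at 16.0 and 19.5 RPKM (0.28).

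Of 5 genes that handle aldehydes from polyamine oxidation, 3 were tested and none was past the limit. Among these 3, Aldh9a1 had the highest ratio at 37.7 RPKM in NTB-GMP, against 45.1 RPKM in 4T1-GMP (0.26). Aldh2 had the lowest at 67.3 and 54.4 RPKM (-0.31). None of the 6 paralogs and pseudogenes of the members passed the minimum.

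**Figure D5:**
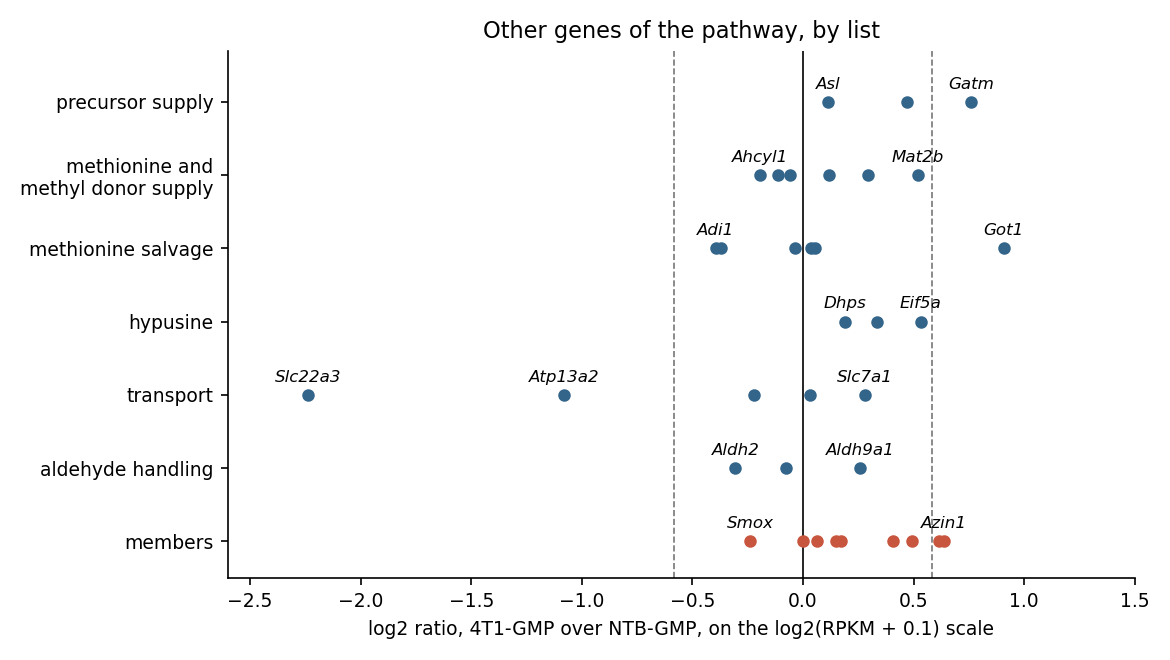
Log2 ratio (4T1-GMP over NTB-GMP) of the tested genes of 6 pathway lists (blue, 1 point a gene) and of the 9 tested members (red), with dashed lines at 1.5-fold and names at the ends of each list. Slc22a3 and Atp13a2 lie left of the left line and Gatm and Got1 right of the right line, and Arg2, at 0 reads in NTB-GMP, is not drawn.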

How the data were processed

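Bulk RNA-seq libraries of sorted GMPs were used, 1 for each group, NTB-GMP and 4T1-GMP. The authors deposited RPKM, 1 value per gene symbol and library, and their processing notes name build mm10, CASAVA 1.8.2, cutadapt 1.2.1, TopHat2 2.0.13, Picard 1.97, HTSeq 0.6.1 and edgeR 3.12.1, without role or order. The read length and the setting for multiply mapped reads are not given in the sources used here.

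Ratios were taken as log2(RPKM + 0.1) over genes whose mean RPKM was 1 or more, with a limit of 1.5-fold. Whole reads and library sizes were recovered from the ratios of RPKM between the libraries and GENCODE M21 (GRCm38) transcript lengths. Of 13182 genes above 0 in both, 99.5% gave whole reads within a relative tolerance of 1e-09. Counts can be too low by a common factor, in which case intervals are wider than needed. A level of 3 reads was taken as the floor. The 95% intervals are Clopper-Pearson (ratios), exact Poisson (levels) and exact conditional odds ratio (pairs), computed with scipy 1.17.1, numpy 2.4.6 and pandas 2.3.3 under Python 3.11.15. The recovery was tested on simulated data whose gene lengths were GENCODE transcript lengths. In the libraries the implied lengths could differ from these, as for Odc1, at 2547 against 2208 bases in its longest coding transcript. The simulation did not cover that case. With 1 library per group, RPKM and recovered reads were compared with no test and no p-value.

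The members, lists and limits were chosen with earlier results of these data known. The genes named are all members, their paralogs, and some tested genes of each pathway list. These are the tested genes with the highest and the lowest ratio and those past 1.5-fold. Arg1 and Dohh fall outside this rule and were named after their values were seen. Alternatives were other pseudocounts, minima, fold limits and scalings. Runs of 50 bases of each member's longest coding transcript were searched in the transcripts of all other GENCODE genes, on both strands. Sequences are GENCODE M21 transcripts.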

Additional observations from a re-analysis of the deposited data

How the results depend on the processing

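The 9 tested members were recomputed under 7 alternatives, which gave 62 values, of which 52 stayed within the read interval. The exceptions came when the library sizes held no Rn45s and with quantile normalization. Leaving out Rn45s gave 0.45 for Odc1, 0.47 for Azin1, 0.33 for Sat1, 0.24 for Srm and -0.0133 for Sms, whose sign turned. Quantile normalization gave 0.38, 0.49, 0.34, 0.16 and 0.03. The number of members at least 1.5-fold higher, 2 as deposited, was 0 without Rn45s, 1 when centred on the median of all tested genes, 0 after quantile normalization, 4 at a log2 limit of 0.32 and 0 at a fold limit of 2. It stayed at 2 with a pseudocount of 1 or 0.01, with all genes above 0, and with a minimum mean RPKM of 5, and no member was 1.5-fold lower under any of these. With Rn45s left out, 5.73% of all tested genes were at least 1.5-fold higher and 17.0% lower. The number of members with a read interval above 0 was 4 in place of 5 with Rn45s left out and with centred ratios, alternatives added after seeing the data. With runs of 100 bases, also added then, the share found in other genes was 76.4% for Amd1, 41.8% for Oaz1 and 19.6% for Odc1. No paired analysis was possible because there was only 1 library in a group, and no library could be left out for the same reason. The median of the members ranged from 0.01 without Rn45s to 0.29 with a minimum mean RPKM of 5, and was 0.28 with all genes above 0, which brings in Amd1. The number of reads counted limits Smox (44 and 109 reads) and the antizymes most.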
